A study of Mus musculus with 8 samples.

Results

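Epidermis of mice without Tcl1 was compared with WT epidermis across all the genes of the array, on 5 of the 8 arrays of the series: 3 from Tcl1-/- mice and 2 from WT mice. The arrays were chosen by their genotype labels alone. The WT mice were C57bl/6 according to the methods, and the Tcl1-/- mice carry a constitutive deletion of Tcl1, so every cell type of their skin lacks the gene. The mice were adult, and no source used here gives the strain of the Tcl1-/- mice or an exact age. Both groups had their hair removed, and the epidermis was taken 3 days after depilation as a sheet separated from the dermis with dispase. The methods state 3 animals and 3 chips for each genotype, and the third WT chip is not analysed here. The 3 remaining arrays come from K14-TCL1 mice, which carry a human TCL1A transgene under the keratin 14 promoter on the Tcl1-/- background. They helped to estimate the spread of each gene and are otherwise used only to place a few results.

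Tcl1 encodes a small protein that binds AKT and raises its kinase activity, and it is best known as an oncogene of lymphocytes. In the skin, keratinocytes (KCs) divide in the basal layer, move upwards while they fill with keratin, and end as cornified cells. Depilation starts a new hair cycle and a mild wound response, in which KCs divide more and express activation genes. AKT and its partner mTOR carry signals from growth factors to protein synthesis, glucose use and cell growth. In a kinase assay of KCs, the paper found no significant difference in AKT activity between Tcl1-/- or K14-TCL1 and WT.

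The values are Affymetrix intensities summarized with RMA, given here on the log2 scale, on which a difference of 1 is a doubling. Differences are Tcl1-/- minus WT, with their SE, and a gene was called higher or lower at an adjusted p under 0.05 in limma. The array medians lay between 6.52 and 6.55. Intensities of different probe sets do not rank transcripts, so levels are compared only between arrays. Krt14 and Krt5, keratin genes of the basal layer, had means of 14.05 and 13.97 in WT and 13.95 and 13.87 in Tcl1-/-, while the dermal collagen gene Col1a1 had means of 3.78 and 3.86, below the level of 5 that was required for a test. The Tcl1 probe set read 5.008, 5.059 and 5.003 in Tcl1-/- and 4.960 and 4.897 in WT. The 2 groups thus lay close together near the low end of the scale, and this probe set checks no label. Whether it lies inside the deleted part is not known here. Of its relatives, Tcl1b1 alone was called (0.17 ± 0.037, adjusted p = 0.0100), and it lost the call without WT replicate 1 (adjusted p = 0.0583) or 2 (0.0621).

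Loss of Tcl1 went with many small shifts and few large ones. Of 9731 genes tested, 2593 were called (26.6%), 1406 of them higher (14.4%) and 1187 lower (12.2%) in Tcl1-/-. The median size of a called difference was 1.19-fold. Under 1.2-fold lay 8401 of the tested genes, and 724 of these were called higher and 634 lower. Between 1.2-fold and 1.5-fold, 535 were called higher and 436 lower, which was 91.1% of that range. Beyond 1.5-fold there were 147 higher and 117 lower genes, 41 and 36 of them beyond 2-fold, and every one of these was called. The typical error was small, with a median SE of 0.0529 over all tested genes and a median SD between replicates of 0.0369 in WT and 0.0474 in Tcl1-/-. The arrays of both genotypes did not overlap for any called gene, which is also true of 57.7% of all tested genes, so this adds little to a call.

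**Figure D1:**
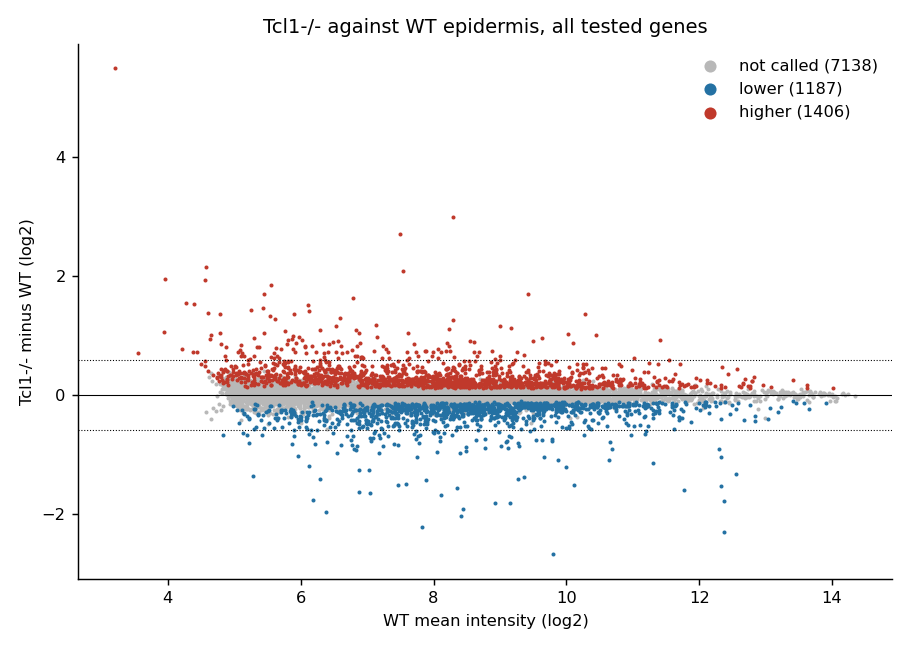
Difference between Tcl1-/- and WT (vertical axis, log2) against the mean intensity in WT (horizontal axis, log2) for the 9731 tested genes. Genes called higher are red, genes called lower blue and the others grey, and the dotted lines mark 1.5-fold. Most called genes lie close to 0, and 147 higher and 117 lower genes lie beyond the dotted lines.

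**Figure D2:**
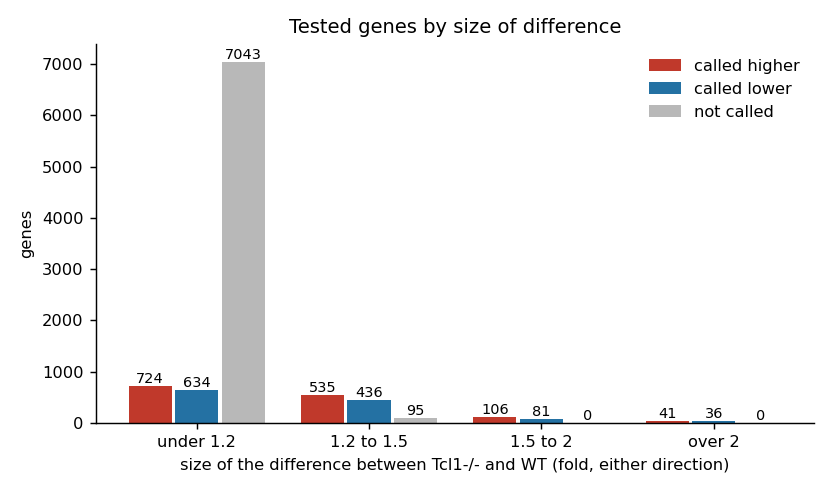
Number of tested genes by the size of their difference between Tcl1-/- and WT in fold, with bars for genes called higher, called lower and not called. Most of the calls, 724 higher and 634 lower, fall under 1.2-fold, and beyond 1.5-fold no gene was left uncalled.

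For some genes the data held the difference within narrow bounds around 0. The 95% interval of the difference stayed within 1.1-fold in either direction for 1297 genes (13.3%). These include KC genes of the suprabasal layers. Krt10, which encodes the main keratin of these layers, was at 14.20, 14.19 and 14.20 in Tcl1-/- and 14.16 and 14.18 in WT (0.03 ± 0.034). For the protein, the paper reports more KRT10 in Tcl1-/- than in WT by Western blot. Krtdap, a differentiation gene of the same layers, differed by -0.01 ± 0.033, the keratin gene Krt77 by -0.01 ± 0.034 and the calmodulin gene Calm4 by -0.05 ± 0.034. The translation factor gene Eef1a1 (0.02 ± 0.033), Tpt1 (0.01 ± 0.033) and the ribosomal protein genes Rpl23 and Rpl26 (0.01 ± 0.033 and -0.01 ± 0.033) were as close. RMA compresses differences near the top of the scale, where these probe sets lie.

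The WT arrays limit the counts more than any other. Without WT replicate 1 the calls fell to 805 higher and 610 lower, and without WT replicate 2 to 847 and 725. In all, 1112 calls (42.9%), 619 higher and 493 lower, held with each of the 8 arrays left out in turn. A gene whose call was lost in this way is named below together with its adjusted p. In bulk epidermis, fewer cells of a type and less RNA per cell cannot be told apart, and this holds for each group of genes that follows. The counts of each group are to be read beside the shares of all tested genes, 14.4% called higher and 12.2% lower.

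Genes of glycolysis and of the response to low oxygen were higher in Tcl1-/-. Of 36 tested genes of this group, 27 were called higher, 2 lower and 7 were not called, with a median difference of 0.26, beside 0.0085 over all tested genes. Egln3, a prolyl hydroxylase that marks HIF proteins for degradation, was at 11.06, 11.05 and 11.08 in Tcl1-/- and 10.03 and 10.03 in WT, a 2.05-fold difference (1.03 ± 0.033, adjusted p = 3.28e-07). A second probe set of Egln3 gave 1.01 ± 0.060. Bnip3, which takes part in the removal of mitochondria, was at 10.13, 10.15 and 10.17 against 8.995 and 8.991 (2.23-fold, adjusted p = 5.39e-07). In both genes each Tcl1-/- array stood about 1 unit above each WT array, and the arrays of a genotype differed by under 0.05. The enzymes of glycolysis shifted by less. Ldhb, a lactate dehydrogenase subunit gene, was at 8.67, 8.62 and 8.63 against 8.02 and 7.94 (0.66 ± 0.045). Aldoc, an aldolase gene, was at 8.86, 8.86 and 8.77 against 8.14 and 8.07 (0.72 ± 0.051). The glucose transporter gene Slc2a1 was higher by 0.52 and the lactate transporter gene Slc16a3 by 0.48, both named after their values were seen. The 2 lower genes were Hif1a, which encodes the oxygen-regulated subunit of HIF1, and Hk2, a hexokinase gene. Hif1a was at 10.09, 10.09 and 10.11 in Tcl1-/- and 10.58 and 10.64 in WT (-0.52 ± 0.041, adjusted p = 5.8e-05), and Hk2 differed by -0.34 ± 0.052. Without WT replicate 1 or 2, 20 or 19 genes of the group were called higher and the same number lower as with all arrays.

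Oxidative phosphorylation did not move as a group against WT. Of 73 tested genes of its subunits, 7 were called higher and 8 lower (20.5%, under the 26.6% of all tested genes), and the median was -0.01. The complex II gene Sdhb was at 9.99, 10.05 and 10.03 against 9.77 and 9.72 (0.27 ± 0.037). The respiratory chain genes Cox7a2l and Ndufa4 were higher by 0.29 ± 0.038 and 0.25 ± 0.040. Ndufa12, a complex I gene, gave -0.61 ± 0.052 on the probe set that stands for it, whereas its other 3 probe sets gave 0.04, 0.19 and -0.13, none of them called. Without WT replicate 1 or 2, 5 or 4 genes of the group were called higher and 4 or 2 lower.

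Interferon-stimulated genes were higher in Tcl1-/- as well. Of 30 tested genes of the type I interferon response, 23 were called higher, none lower and 7 were not called, with a median of 0.39. Of 7 tested GTPases induced by interferon gamma, which act against intracellular pathogens, 6 were called higher and 1 was not called, with a median of 1.09. The calls numbered 19 or 20 and 6 or 6 without WT replicate 1 or 2. Gbp2, one of the GTPases, was at 7.38, 7.36 and 7.49 in Tcl1-/- and 5.65 and 5.47 in WT (3.61-fold, 1.85 ± 0.065). Igtp, another, was at 7.89, 8.02 and 7.86 against 7.01 and 6.67 (2.12-fold). The WT arrays of Igtp lay further apart than its Tcl1-/- arrays, but none reached them. The antiviral genes Rsad2 (0.76 ± 0.053) and Oasl2 (1.53 ± 0.155) rose too, as did Ifi27l2a (0.90 ± 0.049) and Rtp4 (1.37 ± 0.110), which are induced by interferon. Oasl2 rested on WT arrays that differed by more than most, at 4.06 and 4.72, against 5.85, 5.98 and 5.92. Cxcl10, a chemokine of the interferon response that draws T cells, was at 6.82, 6.88 and 6.90 against 5.50 and 5.58 (2.52-fold).

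Antigen presentation genes lay on the same side. Of 17 tested genes of MHC class I and of peptide loading, 10 were called higher and none lower, with a median of 0.17, and no member lay below 0. Psmb9, a subunit of the immunoproteasome, which cuts peptides for presentation, was at 9.06, 9.03 and 9.03 in Tcl1-/- and 8.43 and 8.50 in WT (0.57 ± 0.037). Its partner genes Psmb8 and Psmb10 were higher by 0.42 ± 0.047 and 0.32 ± 0.047. Of the constitutive proteasome, 1 of 34 tested genes was called higher and 5 lower (17.6%, under the 26.6% of all tested genes), with a median of -0.06. Psmb6, whose subunit Psmb9 replaces, was at 10.16, 10.24 and 10.15 against 10.51 and 10.47 (-0.31 ± 0.040). Thus 1 subunit of the constitutive form was lower where its inducible counterpart was higher. The constitutive counterparts of Psmb8 and Psmb10 are not reported here, so no exchange of the forms is read from this pair. The single higher proteasome gene was Psmb1 (0.13 ± 0.037), with -0.07 and -0.03 on its other probe sets, and it lost its call without WT replicate 1 (adjusted p = 0.0966) or 2 (0.147). Without WT replicate 1 or 2, 6 or 7 genes of the class I group were called, and 2 or 4 of the proteasome were called lower.

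Genes of MHC class II, which in the epidermis are read mainly in Langerhans cells, were higher too. Of 18 tested genes of the group, 9 were called higher, 1 lower and 8 were not called, with a median of 0.18. H2-Ab1 was at 10.71, 10.69 and 10.64 in Tcl1-/- and 10.19 and 10.14 in WT (0.52 ± 0.038), H2-Eb1 differed by 0.57 ± 0.042, H2-Aa by 0.45 ± 0.038 and H2-DMa, which loads peptides, by 0.64 ± 0.053. The exception was Cd83, a maturation marker of dendritic cells (-0.54 ± 0.121), which lost its call without WT replicate 2 (adjusted p = 0.0965). The summed intensity of the 21 measured genes of the group was 13.86 to 13.91 in Tcl1-/- and 13.47 to 13.51 in WT on the log2 scale. Markers of the T cells that live in the epidermis were more often higher than lower, with 7 of 20 called higher and 2 lower. Without either WT array, 5 were called higher and 2 lower. The median was 0.12, and 15 of the 20 lay above 0. Ptprc, which encodes CD45 of all leukocytes, was higher (0.48 ± 0.049) and so was the integrin gene Itgae (0.30 ± 0.044), whereas Thy1 (-0.42 ± 0.037) and the cytokine receptor gene Il2rg (-0.52 ± 0.070) were lower. Their summed intensity, over 24 measured genes, was 11.90 to 11.92 in Tcl1-/- and 11.92 to 11.93 in WT. Tyrobp and Fcer1g, adaptor genes of myeloid cells, were higher by 0.58 ± 0.063 and 0.37 ± 0.056, in a list of neutrophil, macrophage and mast cell genes of which 5 of 10 were called higher and 3 lower (3 higher and 2 lower without WT replicate 1). The lower ones include S100a8, at 5.68, 5.83 and 5.77 in Tcl1-/- and 7.05 and 6.99 in WT (-1.26 ± 0.056), and S100a9 (-0.68 ± 0.055), which encode the calprotectin subunits of neutrophils and activated KCs. The neutrophil gene Elane lay under the level for a test, with means of 4.403 in WT and 4.596 in Tcl1-/-. The part of these cells in the higher interferon and MHC genes was not tested.

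Among immediate early genes, which are transcribed within minutes of a stimulus, more were called higher than lower. Besides the AP-1 factors, 13 of 35 tested genes were called higher, 2 lower and 20 were not called, with a median of 0.09. Egr1 was at 11.43, 11.42 and 11.51 in Tcl1-/- and 10.44 and 10.44 in WT (2.02-fold, 1.01 ± 0.042). Btg2, which slows cell division, was at 9.30, 9.31 and 9.39 against 8.29 and 8.17 (2.15-fold), and Ccn1, a secreted matrix protein gene, at 7.52, 7.34 and 7.31 against 6.43 and 6.16 (2.14-fold). Zfp36, which destabilizes mRNAs of inflammation, rose by 0.57 ± 0.043. Arc (-0.42 ± 0.039) and Klf10 (-0.36 ± 0.038), a target of TGFβ, were the lower ones. The AP-1 family split, with 5 of 19 members higher and 3 lower. Fosb was at 6.67, 6.66 and 6.76 against 5.16 and 5.36 (2.71-fold) and Jun was higher by 0.42 ± 0.046, while Fosl1, the member linked to migrating KCs, was at 6.34, 6.34 and 6.43 against 7.18 and 7.30 (-0.86 ± 0.051). The stress factor gene Atf3 was 2.66-fold higher, but its WT arrays, at 5.643 and 6.602, were far apart. Dissociation of skin is known to induce such genes, and whether the overnight dispase step bore on these values was not tested.

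The feedback inhibitors of MAPK signaling went in both directions. Of 14 tested genes, 2 were called higher and 3 lower (35.7%, beside 26.6% of all tested genes). The higher ones were Dusp1, a nuclear phosphatase gene that is itself an immediate early gene, and Dusp2 (0.38 ± 0.067). The lower ones were Dusp6, an ERK phosphatase gene that follows ERK activity, at 7.43, 7.37 and 7.36 in Tcl1-/- and 8.10 and 8.09 in WT (-0.71 ± 0.042, adjusted p = 1.28e-05), Dusp16 (-0.52 ± 0.056) and Dusp7 (-0.46 ± 0.078). Of 37 kinases of the cascades, 6 were called higher and 6 lower (32.4%, near the 26.6% of all tested genes), none beyond 0.33 in size. Without WT replicate 1 or 2, 3 or 3 of these kinases were called higher and 2 or 3 lower. Upstream of them lie the ligands of the EGF receptor. Ereg, which encodes epiregulin, was at 10.19, 10.11 and 10.16 in Tcl1-/- and 11.27 and 11.34 in WT (0.450 times WT, adjusted p = 2.3e-06), and Hbegf differed by -0.33 ± 0.044. Lrig1, an inhibitor of the receptor that marks stem cells of the upper hair follicle, was at 8.92, 8.96 and 8.90 against 8.18 and 8.21 (0.73 ± 0.068), with 0.65 and -0.09 on its other probe sets. In all, 3 of 16 tested genes of ligands and receptors were higher and 5 lower.

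In the insulin and IGF axis, several binding proteins of IGF differed. Igfbp4 was at 9.56, 9.41 and 9.53 in Tcl1-/- and 8.64 and 8.57 in WT (1.86-fold, 0.89 ± 0.051), and Igfbp3 at 11.66, 11.62 and 11.68 against 11.02 and 11.02 (1.55-fold, 0.63 ± 0.040). Irs1, the adaptor that links the receptors to PI3K, was at 9.40, 9.40 and 9.39 against 8.68 and 8.68 (0.72 ± 0.053). Of 15 tested genes, 4 were called higher and 2 lower. The fourth was Igfbp7 (0.24 ± 0.051, and -0.03 on its second probe set), which lost its call without WT replicate 2 (adjusted p = 0.0751), and the lower ones were Igfbp6 and Igf1, neither of which held without WT replicate 1 (adjusted p = 0.153 and 0.247). Among 31 tested genes of PI3K, AKT, mTOR and FOXO, 9 were higher and 4 lower, and 3 or 3 and 2 or 1 without WT replicate 1 or 2. The members with the largest differences encode inhibitors of mTOR. Deptor, which binds mTOR itself, was at 6.59, 6.74 and 7.03 in Tcl1-/- and 8.36 and 8.35 in WT (-1.57 ± 0.114, adjusted p = 3.58e-05) on the probe set that stands for it, whereas its other 2 tested probe sets gave 0.04 and -0.06, neither of them called. Ddit4, a stress-induced inhibitor upstream of mTOR, was at 10.28, 10.25 and 10.27 against 9.71 and 9.75 (0.54 ± 0.039). The lower value of Deptor thus rests on 1 of its 3 tested probe sets.

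Genes of cell division were lower in Tcl1-/-. All 53 tested mitosis genes had a difference below 0, and 40 of them were called lower, with a median of -0.28. Without WT replicate 1 or 2 the calls were 27 or 33. The drop was even rather than deep, with a range from -0.83 to -0.01. Of 49 genes of DNA replication and entry into S phase, 27 were called lower and none higher (16 or 21 without WT replicate 1 or 2), with a median of -0.22. Uhrf1, which keeps DNA methylation through replication, was at 6.86, 6.80 and 6.86 in Tcl1-/- and 7.28 and 7.32 in WT (-0.46 ± 0.063). The polymerase gene Pola1 was at 6.51, 6.77 and 6.70 against 7.17 and 7.25 (-0.55 ± 0.071), and the helicase gene Mcm2 at 8.25, 8.25 and 8.16 against 8.66 and 8.57 (-0.39 ± 0.050). Of 14 tested genes of D-type cyclins, CDK inhibitors and the retinoblastoma family, 6 were called higher and 1 lower (5 or 4 and none without WT replicate 1 or 2). Cdkn2b, which blocks CDK4 and CDK6, was at 9.06, 9.05 and 9.08 against 8.18 and 8.22 (1.83-fold, 0.87 ± 0.045) and its relative Cdkn2c was higher by 0.25 ± 0.038. Ccnd2, a D-type cyclin gene of the opposite role, was higher as well (0.29 ± 0.045), but its other 6 tested probe sets ranged from -0.05 to 0.26 and 3 of them were called. Cdkn1b was higher by 0.38 ± 0.071 on one probe set and differed by -0.46 ± 0.233 on the other.

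**Figure D3:**
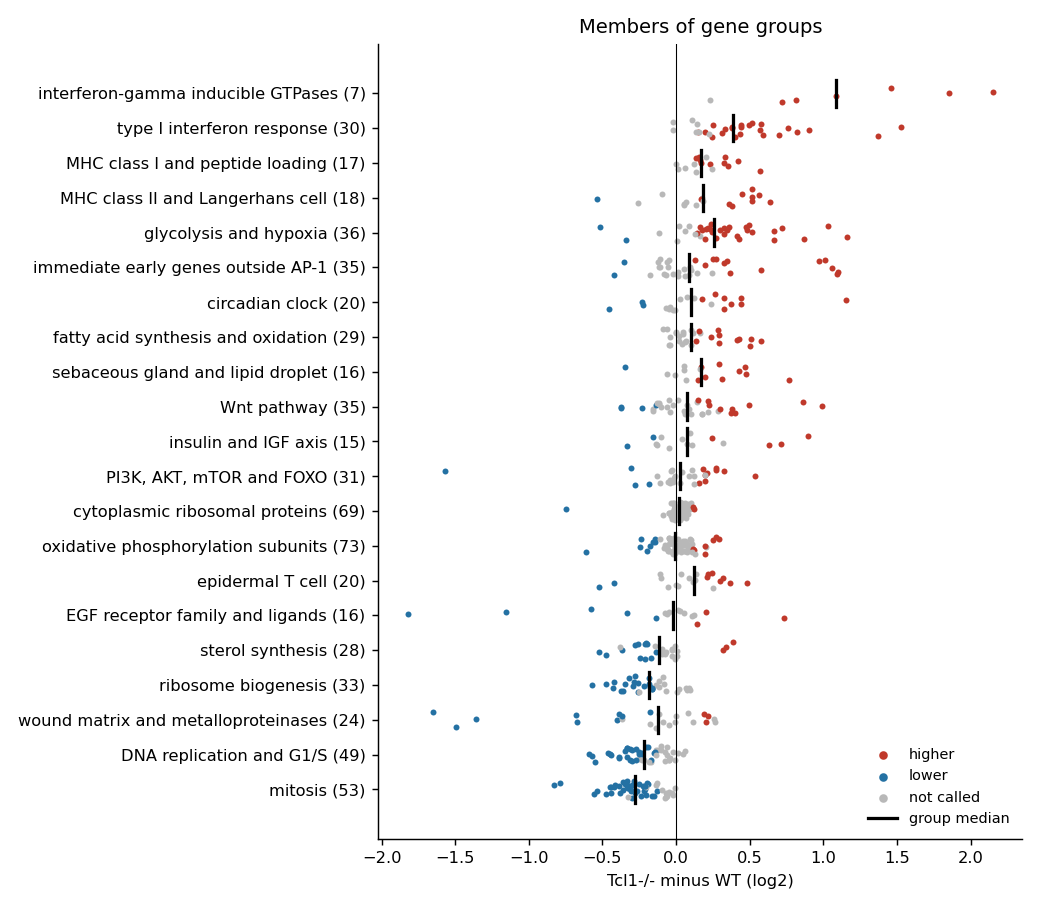
Difference between Tcl1-/- and WT (log2) of each tested member of 21 gene groups, with the number of tested members in parentheses. Points are single genes, red where called higher, blue where called lower and grey otherwise, and the black bar is the group median. Mitosis genes lie to the left of 0 throughout, ribosomal protein genes cluster at 0, and interferon, glycolysis and MHC genes lie mostly to the right.

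Ribosome biogenesis was lower, but ribosomal proteins were not. Of 33 tested genes that build ribosomes in the nucleolus, 20 were called lower and none higher, with a median of -0.18 (10 or 14 without WT replicate 1 or 2). Nop56, part of the complex that modifies rRNA, was at 8.71, 8.69 and 8.75 in Tcl1-/- and 9.22 and 9.17 in WT (-0.48 ± 0.041). Rrp12 was at 6.74, 6.51 and 6.69 against 7.22 and 7.23 (-0.57 ± 0.071), Heatr1 differed by -0.36 ± 0.043 and Gar1 by -0.29 ± 0.037, all of them factors that process or modify rRNA. By contrast, 3 of 69 tested ribosomal protein genes were called (4.35%), 2 higher and 1 lower, with a median of 0.02. The lower one was Rps6, at 8.79, 8.97 and 8.88 against 9.63 and 9.63 (-0.75 ± 0.058), read by 1 tested probe set. Of the higher ones, Rps25 (0.12 ± 0.035) lost its call without WT replicate 1 (adjusted p = 0.175). Odc1, the first enzyme of polyamine synthesis and a well-known target of Myc, was at 8.57, 8.58 and 8.64 against 10.07 and 10.16 (0.349 times WT, -1.52 ± 0.043). Its other 2 probe sets gave -1.07 and -1.59. Genes of the endoplasmic reticulum and of amino acid supply under ATF4 leaned the same way, with 11 of 36 lower and 3 higher (6 or 8 lower and 2 or 1 higher without WT replicate 1 or 2). Asns, which makes asparagine, was at 9.01, 8.95 and 8.90 against 9.36 and 9.41 (-0.43 ± 0.043), and the amino acid transporter gene Slc7a5 differed by -0.50 ± 0.071.

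The start sites of 4 of these groups, the 2 interferon groups among them, were searched for short motifs. The sequences are RefSeq promoter windows of GRCm38.p6, from 250 bases before to 50 bases after the start of a gene, and 7646 of the 9731 tested genes had one. The groups and motifs were picked after the differences had been seen. The first motif was the core of the interferon-stimulated response element, which is GAAA, any 2 bases and GAAA, the second the core of the hypoxia response element, ACGTG, and the third the cell cycle homology region of mitosis genes, TTTGAA, each on both strands. ACGTG also lies within CACGTG, the E-box of other factors. Shown for each motif are the 2 members of its groups with a match and the smallest p, with matches in capitals.
Gbp2, chr3:142620413-142620712, plus strand: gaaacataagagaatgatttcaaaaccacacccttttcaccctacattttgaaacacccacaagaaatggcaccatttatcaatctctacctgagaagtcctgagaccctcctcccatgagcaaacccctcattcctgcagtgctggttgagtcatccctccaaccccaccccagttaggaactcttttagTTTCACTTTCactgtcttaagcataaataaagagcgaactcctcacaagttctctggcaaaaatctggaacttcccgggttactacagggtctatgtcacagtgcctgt
Irgm2, chr11:58214727-58215026, plus strand: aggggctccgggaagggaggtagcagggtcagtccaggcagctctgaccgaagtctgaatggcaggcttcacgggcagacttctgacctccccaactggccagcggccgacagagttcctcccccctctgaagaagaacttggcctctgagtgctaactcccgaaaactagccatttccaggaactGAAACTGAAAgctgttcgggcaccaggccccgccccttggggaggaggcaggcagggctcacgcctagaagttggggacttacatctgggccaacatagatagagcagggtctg
Egln3, chr12:54203825-54204124, minus strand: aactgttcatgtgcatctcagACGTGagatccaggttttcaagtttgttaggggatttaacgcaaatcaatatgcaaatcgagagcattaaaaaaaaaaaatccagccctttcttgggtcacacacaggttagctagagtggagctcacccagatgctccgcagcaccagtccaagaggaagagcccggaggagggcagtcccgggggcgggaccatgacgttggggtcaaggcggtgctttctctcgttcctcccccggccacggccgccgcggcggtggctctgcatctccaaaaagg
Bnip3, chr7:138909457-138909756, minus strand: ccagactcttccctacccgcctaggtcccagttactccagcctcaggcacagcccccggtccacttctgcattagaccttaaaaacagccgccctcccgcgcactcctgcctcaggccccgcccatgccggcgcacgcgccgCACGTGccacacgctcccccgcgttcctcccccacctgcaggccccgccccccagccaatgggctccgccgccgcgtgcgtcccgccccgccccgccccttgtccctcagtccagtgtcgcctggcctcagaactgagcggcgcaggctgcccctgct
Anln, chr9:22389157-22389456, minus strand: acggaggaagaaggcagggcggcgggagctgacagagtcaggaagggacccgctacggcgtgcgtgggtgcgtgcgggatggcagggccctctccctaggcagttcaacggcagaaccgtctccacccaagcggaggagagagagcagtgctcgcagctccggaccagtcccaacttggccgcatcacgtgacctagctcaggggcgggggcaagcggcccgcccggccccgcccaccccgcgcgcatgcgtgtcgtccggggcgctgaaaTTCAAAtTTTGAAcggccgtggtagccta
Ncapd2, chr6:125191537-125191836, minus strand: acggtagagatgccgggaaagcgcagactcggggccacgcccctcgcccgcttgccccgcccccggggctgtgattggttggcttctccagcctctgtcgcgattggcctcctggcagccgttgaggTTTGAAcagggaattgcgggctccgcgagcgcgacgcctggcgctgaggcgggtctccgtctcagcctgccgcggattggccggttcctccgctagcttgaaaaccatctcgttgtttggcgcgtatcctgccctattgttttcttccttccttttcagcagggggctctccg

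These matches describe letters, not bound sites. The share of a group follows from which genes were put on its list, and does not depend on their differences between Tcl1-/- and WT. The interferon element core was found in 10 of 21 windows of the type I interferon group (47.6%) and 4 of 5 of the GTPases, against 221 of all 7646 (2.89%). In Gbp2 it begins 59 bases before the start and in Irgm2 64. The hypoxia element core was found in 19 of 32 windows of the glycolysis and hypoxia group (59.4%), against 25.6% of all, and in Bnip3 it falls within an E-box. Of these 19 genes, 17 had a difference above 0, and the other 2 were Hif1a and Hk2. In the whole group, with or without a match, 33 of 36 tested genes lay above 0. The cell cycle homology region was found in 32 of 45 windows of the mitosis group (71.1%), against 11.5% of all, and also in 4 of 5 windows of the GTPases. Among all genes called higher beyond 1.5-fold, 7.21% held the interferon core and 18.9% the hypoxia core, beside 2.89% and 25.6% of all. The cell cycle region was held by 17.1% of the genes called higher and 15.5% of those called lower beyond 1.5-fold, beside 11.5% of all.

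**Figure D4:**
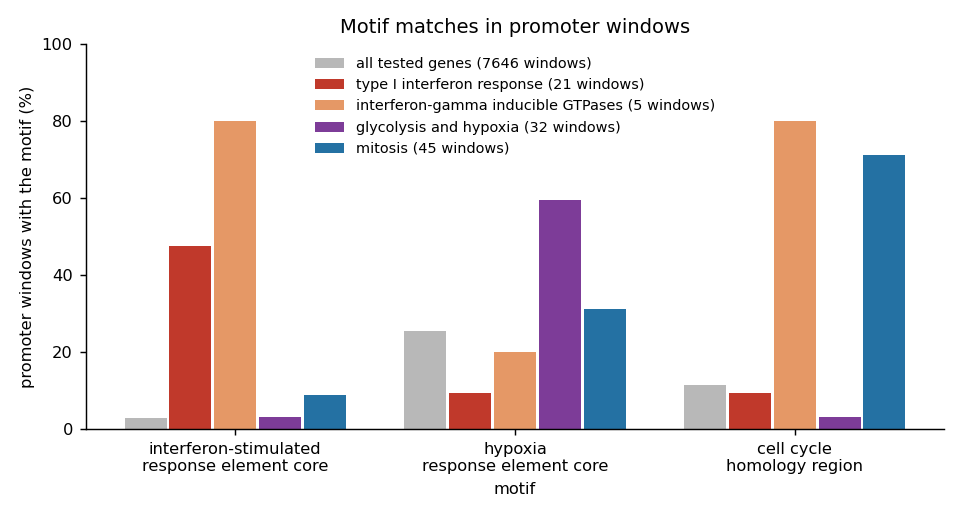
Share of promoter windows (vertical axis, percent) with a match to each of 3 motifs, for all tested genes and for 4 gene groups, with the number of windows in parentheses. The type I interferon, glycolysis and mitosis groups reach 47.6%, 59.4% and 71.1% in the motif searched for them, and the GTPases 80% in both the interferon and the cell cycle motif, over 5 windows only.

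Sterol and fatty acid genes moved apart. Of 28 tested genes of sterol synthesis and uptake, 12 were called lower and 3 higher, with a median of -0.12 (6 or 7 lower without WT replicate 1 or 2). Cyp51, which removes a methyl group from lanosterol, was at 10.01, 9.99 and 10.01 in Tcl1-/- and 10.50 and 10.46 in WT (-0.48 ± 0.040). Sc5d, a later enzyme of the pathway, was at 9.45, 9.51 and 9.59 against 10.02 and 10.06 (-0.53 ± 0.046), and Idi1 differed by -0.37 ± 0.038. Abca1, which exports cholesterol and rises when sterols are plentiful, was higher (0.38 ± 0.072). In contrast, 11 of 29 genes of fatty acid synthesis and oxidation were called higher and none lower, with a median of 0.10. Acsl4, which activates long fatty acids, was at 7.86, 7.83 and 7.74 against 7.30 and 7.30 (0.50 ± 0.057), and the desaturase gene Fads1 was higher by 0.57 ± 0.065. Ppara, the nuclear receptor for fatty acids, was at 7.97, 8.04 and 8.13 against 7.64 and 7.44 (0.51 ± 0.068). Markers of the sebaceous gland, which is pulled off with the epidermis in part, rose with them. Of 16, 9 were called higher and 1 lower, with a median of 0.17. Scd3, the desaturase of sebocytes, was at 6.63, 6.63 and 6.70 against 5.91 and 5.86 (0.77 ± 0.057), Krt79, a keratin gene of the gland duct, at 12.83, 12.83 and 12.78 against 12.36 and 12.33 (0.47 ± 0.036), and Mgst1 was higher by 0.47 ± 0.038. Fabp5, the fatty acid binding protein of KCs, ran against them, at 12.48, 12.48 and 12.48 against 12.82 and 12.84 (-0.35 ± 0.033). The summed intensity of the 21 measured markers was 15.16 to 15.19 in Tcl1-/- and 15.06 to 15.08 in WT. The part of the gland in the higher fatty acid genes was not tested.

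Genes of wound matrix, proteases and their inhibitors were changed in both directions, with the larger differences downwards. Postn, which encodes the matrix protein periostin, was at 11.28, 11.23 and 11.31 in Tcl1-/- and 12.33 and 12.32 in WT (0.483 times WT, -1.05 ± 0.041). Tnc, which encodes tenascin C of healing skin, was at 6.04, 5.99 and 6.25 against 7.61 and 7.56 (-1.49 ± 0.071). Has3, the KC enzyme that makes hyaluronan, was at 5.11, 5.46 and 5.61 against 6.96 and 7.13 (-1.65 ± 0.140), and Cd44, its receptor, differed by -0.37 ± 0.035. Of 24 tested genes of this kind, 9 were called lower and 3 higher (7 or 6 and 1 or 1 without WT replicate 1 or 2). Itga6, an integrin gene that anchors basal KCs, was at 11.22, 11.24 and 11.37 against 11.72 and 11.66 (-0.41 ± 0.050). Stfa3, an inhibitor of cysteine proteases, was at 11.23, 11.22 and 11.21 against 12.55 and 12.55 (0.397 times WT). Serpinb1a, an inhibitor of neutrophil elastase, was at 6.36, 6.37 and 6.37 against 7.10 and 7.09 (-0.73 ± 0.034). Of 18 protease inhibitors, 7 were lower and 4 higher (7 and 2 without WT replicate 2). The kallikrein genes Klk6 (-0.68 ± 0.034), Klk10 (-0.25 ± 0.037) and Klk7 (-0.24 ± 0.037), proteases of the cornified layer, were lower, whereas Prss8, a membrane protease of the barrier, was higher (0.24 ± 0.037). Of the actin cytoskeleton, 12 of 50 genes were lower and 7 higher (8 and 4 without either WT array). In all, 38% of this group were called, beside 26.6% of all tested genes. Its largest difference was upwards, in Cap1 (2.70 ± 0.048), and Pfn1 was higher too (0.37 ± 0.059). Fscn1, which bundles actin in cell protrusions, was at 8.30, 8.26 and 8.30 against 9.07 and 9.10 (-0.80 ± 0.035), and Tpm2 differed by -0.52 ± 0.043. The prostaglandin E synthase gene Ptges was at 7.52, 7.47 and 7.54 against 8.16 and 8.15 (-0.65 ± 0.051). Cytokine and chemokine genes were mixed, with 5 of 22 called higher and 3 lower (36.4%, beside 26.6% of all tested genes) and a median of 0.02. The inflammatory chemokine genes Ccl20 (-0.52 ± 0.046) and Ccl22 (-1.04 ± 0.080) were lower. Higher were Cxcl10 and Cxcl9 (1.93 ± 0.125), the latter with WT arrays at 4.32 and 4.79.

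Of the layers of the epidermis, the differentiation genes stayed near the background of calls. Of 17 tested genes of the spinous and granular layers, 4 were called higher and 2 lower (35.3%), with a median of 0.03, and 1 or none higher and 1 lower were left without WT replicate 1 or 2. Ivl, which encodes involucrin of the cornified envelope, was at 9.24, 9.22 and 9.24 in Tcl1-/- and 9.66 and 9.67 in WT (-0.43 ± 0.041, adjusted p = 0.000156). This is RNA, and the Western blots of the paper show the opposite for the protein, with more involucrin in Tcl1-/- than in WT. Cdsn, a gene of the late desmosomes, was higher by 0.20 ± 0.040 and lost its call without WT replicate 2 (adjusted p = 0.0699). Of the 20 genes of basal adhesion and the basement membrane, 4 were higher and 2 lower, and without WT replicate 1 or 2 the lower ones, Itga6 and Itga3 (-0.43 ± 0.049), were left. Junction genes were called about as often as all tested genes (26.6%). Of the desmosome and adherens junction, 4 of 18 were lower and 1 higher (27.8%), against 1 and none lower without WT replicate 1 or 2. Of the tight junction, 4 of 16 were higher and none lower (25%), and 3 were higher without either WT array. Ocln, which encodes occludin, was at 8.44, 8.38 and 8.43 against 7.99 and 8.06 (0.39 ± 0.051), and Patj, a scaffold of the junction, differed by 0.50 ± 0.062. Among 22 enzymes of the barrier lipids, 4 were higher and 5 lower (4 or 3 and 1 or 4 without WT replicate 1 or 2). Alox12e, the epidermal lipoxygenase gene, was at 12.33, 12.32 and 12.32 against 11.43 and 11.37 (0.92 ± 0.036, adjusted p = 1.07e-06), with no array between the groups. Fa2h, which hydroxylates fatty acids for ceramides, was higher too (0.29 ± 0.046). Transcription factors of the lineage were divided, 5 of 21 higher and 5 lower (4 and 3 without WT replicate 1), with Cebpa (0.27 ± 0.035) and Prdm1 (0.26 ± 0.037) among the higher and Ets1 (-0.46 ± 0.066) and Id3 (-0.23 ± 0.038) among the lower, although another probe set of Ets1 was called in the opposite direction.

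Enzymes that handle glutathione and foreign compounds were called often and in both directions, 14 of 43 higher and 9 lower (8 or 6 and 2 or 4 without WT replicate 1 or 2). Gsta4, a glutathione transferase gene that acts on products of lipid peroxidation, was at 6.61, 6.48 and 6.04 in Tcl1-/- and 8.43 and 8.40 in WT (-2.03 ± 0.139), while Gsta2, a related transferase gene, was at 9.31, 9.37 and 9.27 against 8.63 and 8.69 (0.66 ± 0.053). The cytochrome gene Cyp1a1, induced through the aryl hydrocarbon receptor, was higher by 0.51 ± 0.057 and the carbonyl reductase gene Cbr1 by 0.41 ± 0.045. Heat shock genes and chaperones lay at the background, with 1 of 33 higher and 7 lower (24.2%), of which 1 or 2 lower were left without WT replicate 1 or 2. Of 27 genes of microtubules, none was higher and 7 were lower (25.9%, near the 26.6% of all tested genes, and 5 or 4 without WT replicate 1 or 2). Tubb2a, a tubulin gene, was at 11.08, 11.05 and 11.03 against 11.65 and 11.58 (-0.57 ± 0.040). Genes of apoptosis and p53 were called in 22%, 6 of 41 higher and 3 lower, and genes of the Notch pathway in 25.9%, 5 of 27 higher and 2 lower, both below the share of all tested genes. Without WT replicate 1 or 2, 2 or 1 of the former and 1 or 4 of the latter were still called higher. Among markers of dermal fibroblasts and matrix, 2 of 15 were higher and 3 lower (33.3%, beside 26.6% of all tested genes). Vim (0.51 ± 0.040) lay on the one side and Fbln1 (-0.83 ± 0.044) on the other. Of 5 tested melanocyte markers, Dct was the single one called (0.42 ± 0.063), which is 20%, under the 26.6% of all tested genes. None of the 5 tested skeletal muscle markers and neither tested B cell marker was called.

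Genes of Wnt signaling and of the hair follicle leaned upwards. Of the 17 tested markers of hair follicle stem cells, 7 were called higher and 3 lower (6 and 2 without either WT array), with a median of 0.12. Krt15, a keratin gene of these cells and of basal KCs, was at 13.01, 13.01 and 13.00 in Tcl1-/- and 12.56 and 12.58 in WT (0.44 ± 0.034). The lower members include Postn and Tnc. Of 35 tested Wnt genes, 10 were called higher and 4 lower (8 or 7 and 1 or 2 without WT replicate 1 or 2). Nkd2, an inhibitor of the pathway, was at 6.82, 6.86 and 6.96 in Tcl1-/- and 5.85 and 5.92 in WT (1.99-fold, 0.99 ± 0.064). The receptor gene Fzd7 was at 7.27, 7.21 and 7.41 against 6.52 and 6.34 (0.87 ± 0.071), and Wnt4, a ligand of the basal layer, differed by 0.37 ± 0.040. Wnt2 was at 5.79, 5.90 and 5.75 against 4.07 and 4.47 (2.92-fold). Wnt5a was lower (-0.38 ± 0.068), with -0.08 and no call on its second probe set. Fst, an inhibitor of activins, was at 8.04, 7.95 and 8.19 against 7.31 and 7.18 (0.82 ± 0.073), and Inhbb, an activin subunit gene, at 7.23, 7.15 and 7.05 against 6.38 and 6.45 (0.73 ± 0.057), although its second tested probe set gave -0.00 and was not called. The hair cuticle keratin gene Krt32 was at 7.18, 7.25 and 7.15 against 6.28 and 6.38 (1.82-fold). Of 14 hair keratin and shaft genes, 3 were called higher and 2 lower, and no lower call was left without WT replicate 1 or 2. Clock genes differed as well, with 8 of 20 higher and 3 lower (6 or 5 and 1 or 1 without WT replicate 1 or 2). Per3 was at 7.72, 7.68 and 7.67 against 6.62 and 6.45 (2.23-fold, 1.15 ± 0.066), and Dbp and Nr1d1, further outputs of the clock, were each higher by 0.44 (SE 0.041 and 0.058). Cry1, whose level peaks at another time of day, was lower (-0.46 ± 0.082). No source used here gives the hour at which the skins were taken, and its part in these values was not tested.

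Several further single genes stood out by size. Mt4, the metallothionein of stratified epithelia, was at 11.69, 11.59 and 11.64 in Tcl1-/- and 10.30 and 10.25 in WT (2.58-fold, adjusted p = 5.44e-07), while the ubiquitous Mt2 differed by -0.29 ± 0.035. Car6, a secreted carbonic anhydrase gene, was at 9.52, 9.57 and 9.59 against 8.32 and 8.26 (2.41-fold), and Defb8, a defensin gene, at 8.44, 8.45 and 8.38 against 6.64 and 6.93 (3.11-fold). The transcription factor gene Nfia was at 7.69, 7.58 and 7.64 against 6.26 and 5.97 (2.87-fold). Tmem45b was at 6.41, 6.53 and 6.34 against 8.06 and 8.16 (0.311 times WT), and Procr, the protein C receptor gene, at 5.55, 5.29 and 4.88 against 6.84 and 6.92 (0.321 times WT). Smaller differences were those of Fkbp5 (0.52 ± 0.066) and Tsc22d3 (0.41 ± 0.060), targets of the glucocorticoid receptor, which were higher. Another probe set of Fkbp5 gave 0.21 and was not called. Further probe sets of Tsc22d3 gave 0.46, which was called, and 0.17, which was not. Of the retinoid pathway, 4 of 13 genes were higher and none lower (30.8%, near the 26.6% of all tested genes), and 2 were higher without WT replicate 2.

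**Figure D5:**
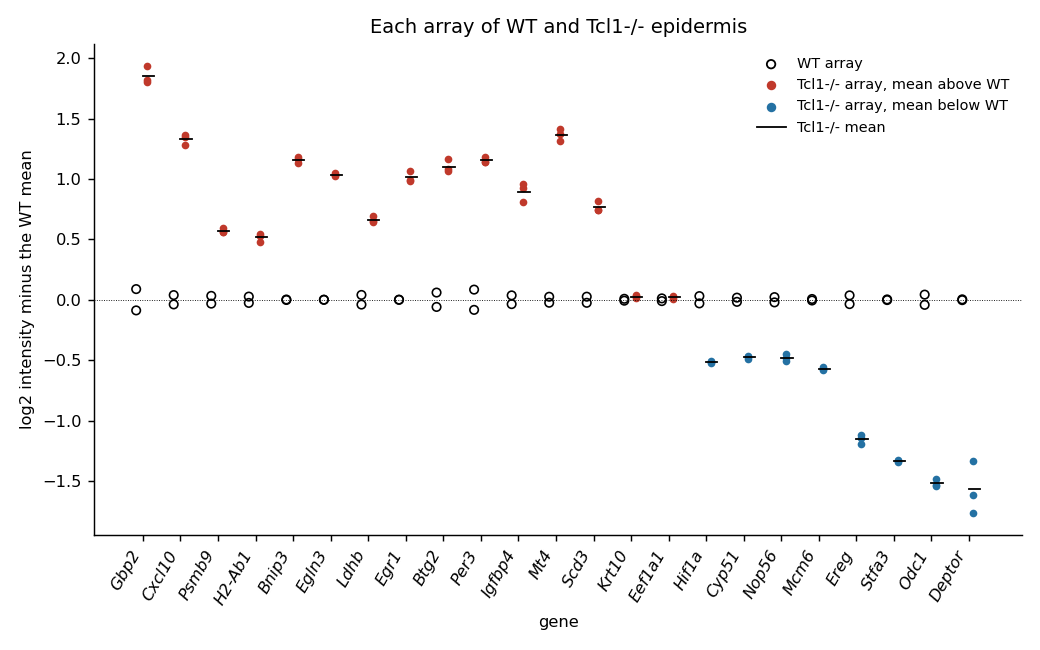
Log2 intensity of 23 genes on each array, minus the mean of the 2 WT arrays of that gene. Open circles are WT arrays, filled points are Tcl1-/- arrays, red where their mean is above and blue where it is below WT, and the short line is the Tcl1-/- mean. The arrays of a genotype cluster for all genes but Deptor, whose Tcl1-/- arrays spread from 6.59 to 7.03, and Krt10 and Eef1a1 lie at 0.

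Small differences were borne out by several probe sets in some genes and not in others. Of 3670 genes with at least 2 tested probe sets, 186 had all of them called higher and 142 all called lower, while 18 had probe sets called in opposite directions, 1059 had only some called and 2265 none. Among the concordant genes under 1.5-fold, the kinase gene Pim3 was at 10.10, 10.15 and 10.10 in Tcl1-/- and 9.60 and 9.58 in WT (0.53 ± 0.037), and Dbi, which encodes the acyl-CoA binding protein, was higher by 0.52 ± 0.040. Nfkbia, the inhibitor and target of NF-κB, was at 11.77, 11.82 and 11.78 against 11.20 and 11.30 (0.54 ± 0.042). Arhgef28 (0.51 ± 0.036), Emb (0.52 ± 0.037) and Clstn1 (0.45 ± 0.033) belong here as well. Downwards, Ide, which degrades insulin, was at 12.23, 12.25 and 12.25 against 12.69 and 12.65 (-0.42 ± 0.038). Bzw1 (-0.48 ± 0.035), Trim16 (-0.54 ± 0.040), the actin-binding Tagln2 (-0.57 ± 0.044) and the collagen gene Col18a1 (-0.51 ± 0.042) were lower on each of their tested probe sets. Pla2g2f, a phospholipase gene of the suprabasal layers, is one of the 18, with -0.46 ± 0.045 on one probe set and 0.56 ± 0.087 on the other, so that no direction is given for it.

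The neighbours of Tcl1 on its chromosome showed no excess of calls. Of the 20 nearest tested genes on each side, 6 were called higher and 4 lower, which is 25% of 40, against 26.6% of all tested genes. The largest differences were those of Serpina3g, a serpin gene induced by interferon gamma (1.04 ± 0.054), and Ifi27l2a, and of Degs2, which makes ceramides of the barrier (-0.52 ± 0.047). Passenger DNA of the strain in which a gene was deleted can change such neighbours, and its part in these values was not tested. The strain of the Tcl1-/- mice is not given, so a difference of strain could also bear on genes elsewhere.

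Tcl1-/- was also set against K14-TCL1, which shares the deletion, to see whether the groups above differed between these genotypes. Of the 9731 genes, 13.9% were called higher and 12.7% lower in Tcl1-/- than in K14-TCL1. The glycolysis and hypoxia group was higher in Tcl1-/- than in K14-TCL1 too, with 27 of 36 genes called, 2 lower and a median of 0.23. The mean of Egln3 in K14-TCL1 was 0.13 above WT, against 1.03 for Tcl1-/-. Odc1 and Stfa3 also lay nearer WT in K14-TCL1, at -0.17 and -0.27. Other genes named above differed from WT by a similar size in K14-TCL1 and in Tcl1-/-. In K14-TCL1, Cap1 was 2.24 above WT, Defb8 1.60, Cxcl10 1.29 and Car6 1.22, and Tnc differed by -1.45. These genes are examples, and genes of either kind were not counted. The ribosome biogenesis genes were lower in Tcl1-/- (16 of 33 called, none higher, median -0.14), as were those of DNA replication (25 of 49 called, 1 higher, median -0.17). Mitosis genes went the other way, with 26 of 53 higher in Tcl1-/- than in K14-TCL1, 2 lower and a median of 0.17. Type I interferon genes did so as well, with 19 of 30 lower in Tcl1-/- than in K14-TCL1 and none higher. The desmosome and tight junction genes, of which 10 of 18 and 8 of 16 were higher in Tcl1-/- than in K14-TCL1, had 1 of 18 and 4 of 16 called higher against WT. Of oxidative phosphorylation, 24 of 73 genes were lower in Tcl1-/- than in K14-TCL1 and 3 higher, with a median of -0.07. Of the spinous and granular layers, 8 of 17 were higher and 1 lower, and of the sebaceous markers 10 of 16 and 2. Epidermal T cell markers had 7 of 20 lower and 1 higher. WT and K14-TCL1 are thus different references for several of these groups, and both comparisons share the Tcl1-/- arrays.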

How the data were processed

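Epidermal RNA was read on mouse arrays of Affymetrix. The deposited intensity values are RMA summaries that the authors gave on the linear scale (4.92 to 20952). No source used here gives the version of the RMA software. Values of the same arrays in a second deposited table equal them. Depth has no meaning for such values, and the number of arrays (3 and 2) limits precision.

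Intensities were taken to log2 with no pseudocount. Of 22690 probe sets, 64 control sets, 492 unnamed ones and 578 that match several genes were not used. Of the remaining 21556, 19478 names were current RefSeq symbols, 1633 were updated and 445 kept. The probe set with the highest mean stood for each of 13201 genes, and the 9731 with a genotype mean of at least 5 were tested with limma 3.58.1 in R 4.3.3, in a model of all 8 arrays (5 residual and 3.32 prior degrees of freedom), with Benjamini-Hochberg adjustment over them. Replicate labels do not say whether arrays stem from separate animals beyond the methods' statement, and p-values measure the spread between these arrays. The fit was tested on simulated data.

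The comparison, the 63 gene lists and the rule for named genes were chosen with earlier results of these data known. Lists are described by counts and medians, with no test of a list. Named genes were those ranked 11 to 25 in each direction, up to 4 called members of a list by smallest p and 2 against its majority, 8 in each direction under 1.5-fold with concordant probe sets, 8 with the highest intensities whose interval lay within 1.1-fold, and the Tcl1 family. The text gives most of these, and some are not reported here. Krt5, Krt14, Col1a1, Elane, Slc2a1, Slc16a3, Ncapd2 and Serpina3g were added after their values were seen. The alternatives changed the filter, the probe sets of a gene, the scaling or the variance model, or left out an array. The plots come from matplotlib 3.10.9 (Python 3.11.15).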

Additional observations from a re-analysis of the deposited data

How the results depend on the processing

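The 1406 genes called higher and 1187 called lower rest on small differences. With a test against 1.2-fold in place of 0 (limma's treat), 206 were higher and 160 lower, and with the filter and p of the methods, over probe sets, 146 and 128. Leaving out single arrays gave 805 to 1554 higher and 610 to 1370 lower genes, with the lowest counts in each direction without WT replicate 1 and the highest without K14-TCL1 replicate 2. A replicate block gave 1131 and 917 calls and kept 1940 of the 2593 (74.8%), but same-numbered arrays did not deviate together (correlations from -0.061 to 0.057), so the numbers pair nothing. All other filters, scalings and variance models gave counts within 1.5 times those reported. Among named genes the sign turned for Cdkn1b (-0.038) and Pla2g2f (0.052) with the mean of all probe sets, and for Rps25 (-0.037) and Ndufa12 (0.195) without probe sets ending in _x_at or _s_at. Another scaling moved the median of all genes to 0.0138 (centred arrays) or 0.0058 (cyclic loess), from 0.0085. With 2 WT arrays, genes at low intensities were called less often (15.6% under a level of 6, against 33.6% between 10 and 12).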
